A study of Danio rerio with 6 samples.

Results

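The 4 FoxA genes foxa, foxa1, foxa2 and foxa3, the pancreatic factor gene pdx1 and the chemokine receptor genes cxcr4a and cxcr4b were followed in zebrafish embryos carrying the human oncogene EWS-FLI1. They were taken as probe sets to which the array's annotation gives exactly 1 gene, that gene being 1 of the 7. All 7 were present, with 1 probe set each, among 8793 measured genes and 15502 tested probe sets. They were chosen by the array values themselves, because foxa and pdx1 were higher in EWS-FLI1 than in control arrays while related genes were lower. The differences of these 7 genes are therefore a description and carry no test.

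The study compared wild-type AB strain embryos, which lack the transgene, with Tg(HSP:EWS-FLI1) embryos, in which a heat shock promoter drives the human fusion gene. At 50% epiboly, the onset of gastrulation, embryos of either group received the same heat shock of 30 min at 39 °C and then 2 h at 28.5 °C before RNA was taken. Each group had 3 arrays, called biological replicates by the labels, and each array held RNA from 40 pooled whole embryos. A heat shock promoter acts throughout the embryo, the share of embryos in a pool that carried the transgene is not given in the sources used here, and the fusion itself was not measured here. Values are log2 RMA values, on which a step of 1 is a doubling, and differences are EWS-FLI1 minus AB control.

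FoxA proteins are forkhead transcription factors that can bind closed chromatin and open it for other regulators. In vertebrate embryos they act in the endoderm, the layer that forms gut, liver and pancreas, and in the axial midline, where foxa2 works in the notochord and the floor plate of the spinal cord. Pdx1 is a homeodomain factor of the ParaHox group that is needed for the pancreas and, in zebrafish, is normally switched on in the endoderm after gastrulation. Cxcr4 receptors answer the chemokine Cxcl12: in zebrafish, Cxcr4a on endodermal cells tethers their movement to the mesoderm during gastrulation, and Cxcr4b guides primordial germ cells and the lateral line.

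Arrays of a group resembled each other, with correlations across probe sets of 0.991 to 0.994 among controls, 0.998 among EWS-FLI1 arrays and 0.982 to 0.988 between the groups. As a reference for background, the 95th percentile of 44 bacterial and tag control probe sets was 4.19. For the GAPDH control probe sets, the 3′ signal minus the 5′ signal, a measure of RNA integrity, was 1.21 ± 0.10 in EWS-FLI1 and 0.83 ± 0.12 in control arrays (SD, n = 3 each; exact permutation p = 0.1, the smallest that 3 against 3 can give). That of the actin controls differed by -0.26 (exact permutation p = 0.2), the opposite direction, and the part of RNA integrity in the values below was not tested.

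Among the FoxA genes, foxa alone was higher in EWS-FLI1 embryos. Its values were 5.47, 5.38 and 5.38 in the control arrays and 8.39, 8.29 and 8.20 in the EWS-FLI1 arrays. The groups were far apart, with 2.73 between the highest control and the lowest EWS-FLI1 array against a range of 0.09 within controls and 0.19 within EWS-FLI1. The means were 5.41 ± 0.05 and 8.29 ± 0.10 (SD, n = 3 each), a difference of 2.88 (SE 0.09) or 7.38-fold. This was the 26th largest rise among the 15502 probe sets. The control values of foxa lay above the background reference in every array, so this difference was measured on both sides.

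foxa1, which is also transcribed in axial and endodermal cells, was lower in EWS-FLI1 embryos. Its values were 6.31, 6.16 and 6.53 in controls and 5.06, 5.30 and 5.32 in EWS-FLI1 arrays. No EWS-FLI1 array reached a control array, and the gap was 0.84. The difference was -1.11 (SE 0.12), or 2.15-fold lower, the 92nd from the bottom of all probe sets.

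foxa2 and foxa3 differed less. foxa2 read 9.35, 9.25 and 8.83 in controls and 8.60, 8.72 and 8.81 in EWS-FLI1 arrays, so that the lowest control stood 0.02 above the highest EWS-FLI1 array. Its difference was -0.43 (SE 0.14). foxa3 read 7.31, 7.22 and 6.72 in controls and 6.27, 6.68 and 6.79 in EWS-FLI1 arrays, where the groups overlapped through control replicate 3, and its difference was -0.50 (SE 0.18). For both genes control replicate 3 was the lowest control. Without it the differences were -0.59 for foxa2 and -0.69 for foxa3, and without control replicate 1 they were -0.33 and -0.39.

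pdx1 was the other gene of the 7 that was higher with the transgene. Its values were 3.52, 3.85 and 3.78 in controls and 6.70, 5.95 and 6.15 in EWS-FLI1 arrays. Each control array lay under the background reference and each EWS-FLI1 array above it, by a gap of 2.10 between the groups. The means were 3.72 ± 0.17 and 6.27 ± 0.39 (SD, n = 3 each), a difference of 2.55 (SE 0.18) or 5.86-fold. Because the control values were not above background, the size of this difference depends on the background, on the log2 scale and as a fold alike. The EWS-FLI1 arrays spread widely for pdx1: their SD was at the 99.9th percentile of all tested probe sets in that group. That of foxa3 was also high, at the 98.2nd, while that of foxa was at the 51.8th.

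Both chemokine receptor genes were lower in EWS-FLI1 embryos. cxcr4a read 9.24, 9.43 and 9.10 in controls and 8.26, 8.53 and 8.46 in EWS-FLI1 arrays, with a gap of 0.57 between the groups. Its difference was -0.84 (SE 0.11), or 1.79-fold lower. cxcr4b read 5.82, 5.84 and 6.35 in controls and 5.03, 5.16 and 4.99 in EWS-FLI1 arrays. No array crossed over for cxcr4b either, control replicate 3 stood above the other controls, and its difference was -0.94 (SE 0.15), or 1.92-fold lower. Since RNA came from whole embryos, fewer cells of a type and less RNA per cell cannot be told apart for these genes.

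**Figure D1:**
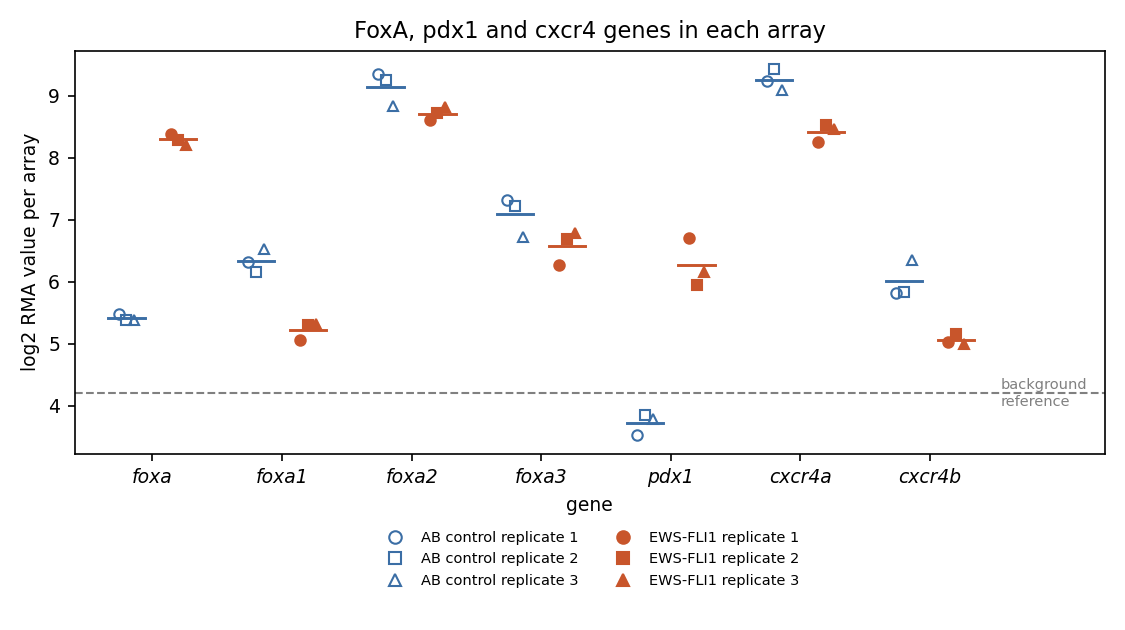
Log2 RMA value of each of the 7 genes (y axis) in each of the 6 arrays, with AB control arrays as open blue symbols, EWS-FLI1 arrays as filled orange symbols, the symbol shape giving the replicate, short lines the group means and the dashed line the background reference of 4.19. The orange symbols of foxa and pdx1 stand above their controls, those of foxa1, foxa2, cxcr4a and cxcr4b below theirs, and the groups of foxa3 overlap.

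Counted together, 6 of the 7 genes did not overlap between the groups, where 29.0% of all tested probe sets did not, and limma, a linear model with moderated variances, called 5 of the 7 at adjusted p under 0.05, where it called 11.8% of all probe sets. Of these, foxa and pdx1 were higher, as were 5.38% of all probe sets, and foxa1, cxcr4a and cxcr4b were lower, as were 6.46%. Since this same contrast chose the genes, nothing is read from these counts. The array of EWS-FLI1 replicate 1 lay farthest from the controls for 6 of the 7 genes, all but cxcr4b. Over probe sets whose groups did not overlap, a set that leaves out foxa3, that array was the farthest in 44.7% of 4296 without ties. Without it foxa was 2.84 higher, pdx1 2.33 higher, foxa1 and cxcr4a differed by -1.02 and -0.76.

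Within each group the 7 genes did not move as a unit from array to array. foxa2 and foxa3 had the same order of arrays in both groups: among controls replicate 3 was lowest, at -0.31 and -0.36 from the control means, and among EWS-FLI1 arrays replicate 1 was lowest, at -0.11 and -0.31 from theirs. foxa1 and cxcr4b ran the other way in control replicate 3, at 0.20 and 0.35 above their control means. The low reading of control replicate 3 was shared by many genes of the endoderm specification list, which also holds Nodal pathway genes and the factors pou5f3 and nanog. It was not particular to endoderm factors: pou5f3 read 9.17, 9.54 and 8.59 in controls. Outside the list, the germ cell markers nanos3 and ddx4 were also lowest there, at 5.01 and 4.87, while dnd1, at 7.73, was not. Among 17 endoderm specification genes above background in controls, control replicate 3 was the lowest control for 12 (70.6%), against 32.1% of 6360 such genes in all. sox32, the Sox factor that commits cells to endoderm, read 8.46, 8.68 and 7.93 in controls, and its target sox17 read 5.95, 5.77 and 5.36.

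The pattern of each gene over the 6 arrays was set beside all 10794 other probe sets with 1 gene, by Pearson correlation as a description, since the groups alone place many probe sets near 1. For foxa, the closest were aanat2 (0.9999), an enzyme gene of melatonin synthesis, apol1 (0.9998) and col1a2 (0.9995), a type I collagen gene, among 279 probe sets with a correlation above 0.95. For pdx1 they were the atypical cadherin gene dchs1b (0.9986), bmper (0.9980) and the G-protein gene gna12a (0.9979), among 281. For foxa1 they were ahnak (0.9986), scel (0.9980) and the Hairy-related gene her9 (0.9977), among 334. For cxcr4a they were the Iroquois gene irx7 (0.9989), the plakophilin gene pkp1b (0.9968) and fam204a (0.9968), among 188.

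Most genes of the endoderm specification list, Nodal pathway genes among them, were not called, though the share that fell was above that of all genes. Of 20 measured genes of endoderm specification, limma called 4 lower and 0 higher in EWS-FLI1 embryos, with a median difference of -0.20, while it called 7.12% of all 8793 genes lower and 5.65% higher, with a median of 0.00. Both group means lay at background for 3 of the 20. At an unadjusted p under 0.05, 6 of the 20 were lower and 1 was higher. Those that fell included the Nodal antagonist genes lft1 (-0.89, SE 0.14, limma adjusted p = 0.0042), lft2 (-0.74, SE 0.10, limma adjusted p = 0.0021) and the Nodal ligand gene ndr2 (-0.48, SE 0.12, limma adjusted p = 0.029). The Hairy-related gene her5, which is transcribed in early endoderm and in the midbrain, fell by 0.57 (SE 0.12, limma adjusted p = 0.014). The call of her5 was lost without EWS-FLI1 replicate 1 or 2, and that of ndr2 when any array but control replicate 3 was left out (highest limma adjusted p = 0.075 and 0.11). The defining endoderm factors were not called: sox32 differed by -0.27 (limma adjusted p = 0.46), sox17 by -0.03 (limma adjusted p = 0.94), and gata5 by -0.32 (limma adjusted p = 0.11). hhex, a homeobox gene of the early liver and pancreas, differed by 0.50 (limma adjusted p = 0.059), and it rose without control replicate 2 (0.65, limma adjusted p = 0.0059) and with array weights (0.53, limma adjusted p = 0.027). The endoderm factors also moved with single control arrays: sox32 differed by -0.48 without control replicate 3 (limma adjusted p = 0.052) and by -0.11 without control replicate 2, and sox17 by -0.20 without control replicate 3 and 0.10 without control replicate 1. The count of fallen genes was 8 without control replicate 3, 2 without EWS-FLI1 replicate 1 and 2 without EWS-FLI1 replicate 2, and without control replicate 3 gata5 fell (-0.41, limma adjusted p = 0.032).

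The axial midline is the other territory of FoxA genes. Of its 19 measured genes 9 fell, 2 rose and 8 were not called, with a median of -0.43, a direction opposite to that of foxa. Of all genes limma called 7.12% lower and 5.65% higher. Both group means lay at background for 6 of the 19, and 7 fallen genes remained when dim probe sets were filtered out. The largest falls were in the collagen gene col2a1a (-1.04, SE 0.17, limma adjusted p = 0.0059), whose EWS-FLI1 mean lay within the background reference, and in the BMP antagonist gene nog1 (-1.01, SE 0.20, limma adjusted p = 0.013). chrd, another BMP antagonist gene, fell by 0.91 on the log2 scale (SE 0.09, limma adjusted p = 6.5e-04). noto, a notochord homeobox gene, fell by 0.87 (SE 0.13, limma adjusted p = 0.0040), and shha, the Sonic hedgehog gene of the notochord and floor plate, by 0.62 (SE 0.10, limma adjusted p = 0.0064). Those that rose with foxa were nog2, by 1.12 (SE 0.17, limma adjusted p = 0.0043) from a control mean within the background reference, and tbxta, the zebrafish Brachyury gene, by 0.54 (SE 0.11, limma adjusted p = 0.012). The call of nog1 was lost without EWS-FLI1 replicate 1 or 3 (highest limma adjusted p = 0.059).

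Among other forkhead genes more fell than rose. Of the 21 measured Fox genes outside the FoxA group 6 fell, 1 rose and 14 were not called, with a median of -0.29. Both group means lay at background for 4 of the 21. Of all genes limma called 7.12% lower and 5.65% higher. foxd3, a neural crest regulator, fell by 1.42 (SE 0.17, limma adjusted p = 0.0014), foxb1a by 0.90 (SE 0.19, limma adjusted p = 0.017), the paraxial mesoderm gene foxc1a by 0.84 (SE 0.14, limma adjusted p = 0.0054) and foxd5 by 0.80 (SE 0.16, limma adjusted p = 0.013). foxo3b, named after its value was seen, was the 1 that rose (0.72, SE 0.15, limma adjusted p = 0.017). Its other, dimmer probe set was not called (0.10, limma adjusted p = 0.57). With 1 array left out, the count of fallen Fox genes ran from 3, without EWS-FLI1 replicate 1, to 8, without control replicate 2. foxo3b was not called without control replicate 1 or any 1 EWS-FLI1 replicate. foxb1a lost its call without control replicate 1 or EWS-FLI1 replicate 1 or 3 (highest limma adjusted p = 0.080), and foxd5 without EWS-FLI1 replicate 1 (limma adjusted p = 0.069).

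pdx1 was not accompanied by a general rise of pancreatic, liver and gut genes. Of 24 such genes 1 rose, 4 fell and 19 were not called, with a median of -0.06, and 9 of the 24 had both group means at background. Of all genes 5.65% were called higher and 7.12% lower by limma. At an unadjusted p under 0.05, 2 of the 24 were higher and 7 were lower. The insulin gene ins read 4.98, 4.92 and 4.89 in controls and 4.91, 4.96 and 4.96 in EWS-FLI1 arrays, a difference of 0.01 (SE 0.08, limma adjusted p = 0.96). The 1 that rose was neurod1, a basic helix-loop-helix factor gene of neurons and endocrine cells (0.76, SE 0.12, limma adjusted p = 0.0055), but its means of 2.64 and 3.39 both lay within the background reference. isl1a, a LIM-homeobox gene, fell by 0.98 (SE 0.14, limma adjusted p = 0.0031), meis3 by 0.84 (SE 0.20, limma adjusted p = 0.030) and the retinoic acid-degrading enzyme gene cyp26a1 by 0.80 (SE 0.13, limma adjusted p = 0.0059). meis3 lost its call without control replicate 1 or any 1 EWS-FLI1 replicate (highest limma adjusted p = 0.12). The other ParaHox-class genes measured, cdx4 (-0.33, limma adjusted p = 0.083) and cdx1a (-0.00, limma adjusted p = 0.99), were not called by limma, and 1 of the 2 had an unadjusted p under 0.05. The groups of cdx4 did not overlap. It was called lower when the variance prior of limma followed the mean signal (limma adjusted p = 0.0325). mnx1 was not analysed here.

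Some genes of chemokine and related guidance fell, among them cxcl12a and ackr3b, which act with the Cxcr4 receptors. Of 12 measured genes of this list, 4 fell, 0 rose and 8 were not called by limma, with a median of -0.31. Both group means lay at background for 5 of the 12. Over all genes limma called 7.12% lower and 5.65% higher. At an unadjusted p under 0.05, 6 of the 12 were lower and 0 higher. Many genes written in the list, ackr3a among them, were not measured. cxcl12a, the ligand gene, read 7.16, 7.16 and 7.48 in controls and 6.38, 6.74 and 6.53 in EWS-FLI1 arrays. It fell by 0.72 (SE 0.13, limma adjusted p = 0.0078), and its other probe set fell by 0.63 (limma adjusted p = 0.0080). ackr3b, whose product is a scavenger receptor that removes Cxcl12, fell by 0.75 (SE 0.10, limma adjusted p = 0.0026).

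cxcl12b, the other ligand gene, could not be placed by these arrays. It read 7.87, 6.41 and 8.48 in controls and 6.30, 6.15 and 6.63 in EWS-FLI1 arrays, so control replicate 2 stood among the EWS-FLI1 arrays. The difference was -1.23 (SE 0.44, limma adjusted p = 0.12), and without control replicate 2 it was -1.82 (limma adjusted p = 5.7e-04). Without control replicate 3 or 1 it was nearer to 0, the smallest value being -0.78. apela, the peptide ligand gene for Apelin receptors that act in the movement of mesoderm and endoderm, fell by 0.61 (SE 0.13, limma adjusted p = 0.017). Its call was lost without control replicate 1 or EWS-FLI1 replicate 1 or 3 (highest limma adjusted p = 0.078). fn1a, a fibronectin gene, fell by 0.59 (SE 0.09, limma adjusted p = 0.0043), while its other, dimmer probe sets were not called (-0.30 and -0.14).

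**Figure D2:**
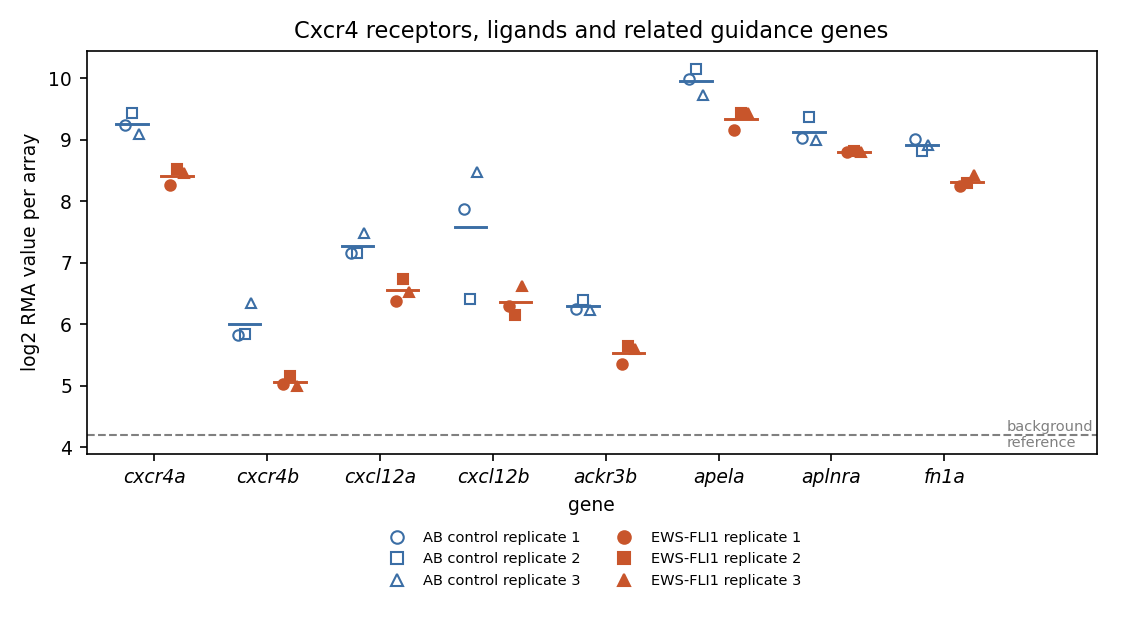
Log2 RMA value (y axis) of cxcr4a, cxcr4b, the ligand genes cxcl12a and cxcl12b, the scavenger receptor gene ackr3b and 3 related guidance genes in each of the 6 arrays, with symbols, mean lines and dashed background reference as for the 7 genes. For cxcr4a, cxcr4b, cxcl12a and ackr3b every EWS-FLI1 array lies below every control array, while for cxcl12b the control values span 6.41 to 8.48 and reach into the EWS-FLI1 arrays.

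**Figure D3:**
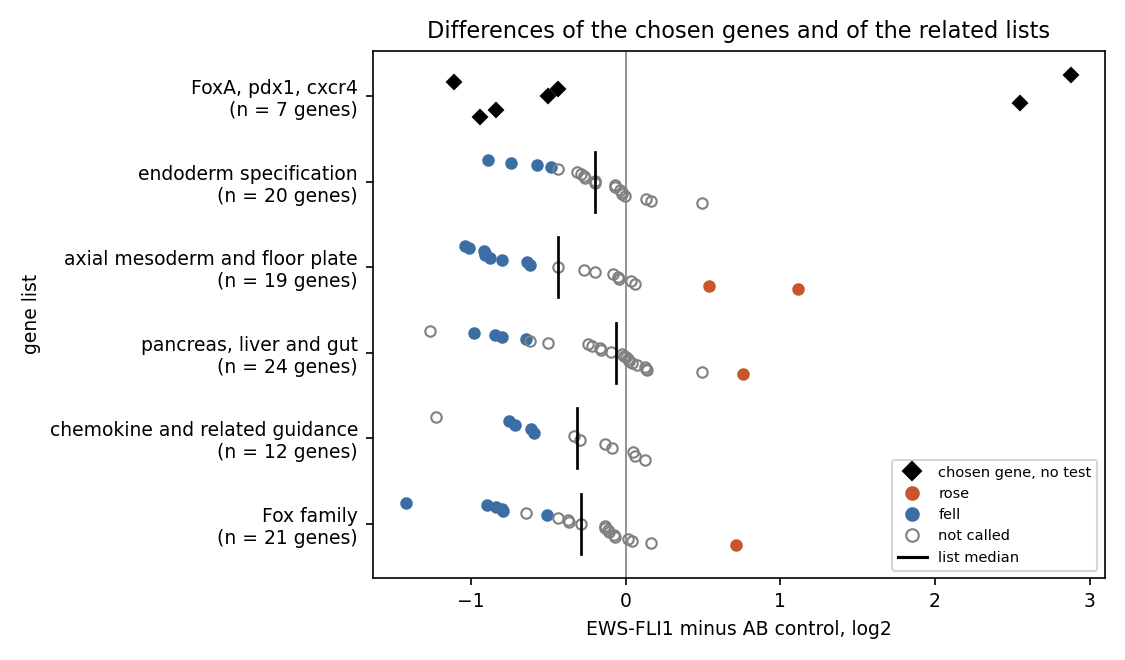
Difference between EWS-FLI1 and AB control embryos (x axis, log2) of the 7 chosen genes (black diamonds, no test) and of every measured gene of 5 related lists (circles, filled orange where limma called a rise, filled blue where it called a fall, open where neither), with vertical lines at the list medians. foxa at 2.88 and pdx1 at 2.55 lie beyond every gene of the 5 lists, of which the highest is nog2 at 1.12. Since this same contrast chose foxa and pdx1, nothing is read from their position.

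Markers of other territories also differed between the pools. For comparison, limma called 7.12% of all genes lower and 5.65% higher. All 7 neural plate markers fell (median -0.95), and their summed level on the log2 scale was 11.98 to 12.06 in controls and 11.00 to 11.36 in EWS-FLI1 arrays. Summed levels are the log2 of summed linear values, so the brightest genes of a list weigh most. Of 6 muscle and somite markers 4 fell (median -0.69), with summed levels of 11.55 to 11.78 and 11.08 to 11.38. The brightest of these 6, msgn1, had means of 11.44 in controls and 11.10 in EWS-FLI1 arrays and was not called. Of 10 enveloping layer markers 2 fell (ppl by 0.41 and evpla by 0.52, the latter at background), with summed levels of 14.23 to 14.34 and 14.10 to 14.28. Both calls were lost when any array but control replicate 3 was left out. That of ppl was also lost with replicate number as a block in the fit, and that of evpla after quantile normalization was applied again. Among 8 yolk syncytial layer markers limma called 0, with 1 lower at an unadjusted p under 0.05, and summed levels of 13.60 to 13.79 and 13.60 to 13.62. It called 2 of them lower without control replicate 3, among them hnf4a (-0.655, limma adjusted p = 0.0073), and 1 lower with array weights. Among 6 primordial germ cell markers, the cells that use Cxcr4b, limma called 0, with 2 higher at an unadjusted p under 0.05, and summed levels were 8.40 to 8.69 and 8.63 to 8.67. A dimmer probe set of piwil1, at background, was called higher (0.31, limma adjusted p = 0.049). A dimmer one of dnd1 differed by 0.69 (limma adjusted p = 0.22). The count of raised markers was 1 without control replicate 1 and 2 without control replicate 2. Of the probe sets standing for the 6 genes, the largest differences were 0.51 for ddx4 (limma adjusted p = 0.21) and -0.42 for nanos3 (limma adjusted p = 0.31). The differences of ddx4 and nanos3 both moved with single control arrays. Without control replicate 2 ddx4 was called higher (0.76, limma adjusted p = 0.021), and without control replicate 3 its difference was 0.22, while nanos3 was called lower without control replicate 3 (-0.73, limma adjusted p = 0.0038) and differed by -0.24 without control replicate 1. The part of the germ cell, neural and somite markers in the differences of foxa1, cxcr4a and cxcr4b was not tested.

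Some measured neighbours of foxa (1 of 4) and of pdx1 (3 of 4) rose. The nearest measured genes, up to 2 on each side, were read for each of the 7 from the gene order of the RefSeq table for assembly GRCz12tu, which is not the array's own source. Of 28 neighbours 4 rose, 1 fell and 23 were not called, and all 4 that rose lay beside foxa or pdx1. Both group means lay at background for apln and lonrf4 beside foxa. The same held for at least 1 neighbour of each other gene except pdx1. For such dim neighbours, the lack of a call does not show that a rise was absent.

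Next to foxa, with 1 protein-coding gene between them for which no value is used here, lies zdhhc24, a gene of the palmitoyltransferase family. It read 6.44, 6.72 and 5.92 in controls and 8.88, 8.49 and 8.73 in EWS-FLI1 arrays, a rise of 2.34 (SE 0.19, limma adjusted p = 1.9e-04). No array of zdhhc24 crossed over between the groups. The other measured neighbours of foxa, apln, med7 and lonrf4, differed by -0.30, 0.20 and 0.22 and were not called.

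Around pdx1, 3 of 4 measured neighbours rose. lnx2a, a ubiquitin ligase gene, read 4.53, 4.51 and 4.68 in controls and 5.22, 5.05 and 4.97 in EWS-FLI1 arrays, a rise of 0.51 (SE 0.10, limma adjusted p = 0.012). gtf3ab, the gene of transcription factor TFIIIA, read 4.24, 4.77 and 4.55 in controls and 5.24, 5.10 and 5.30 in EWS-FLI1 arrays, a rise of 0.69 (SE 0.14, limma adjusted p = 0.012), and its other probe set rose by 0.63 (limma adjusted p = 0.0040). tagln3b, a transgelin gene with 7 protein-coding genes between it and pdx1, rose by 0.71 (SE 0.14, limma adjusted p = 0.014), and spata13 differed by -0.19 (limma adjusted p = 0.39). The groups of lnx2a, gtf3ab and tagln3b did not overlap.

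Of all 8580 measured genes with 4 placed neighbours, 20.1% had at least 1 raised neighbour and 0.128% (11 genes) had at least 3. Among the 484 such genes that rose, 33.3% had at least 1 and 0.413% (2 genes) had at least 3. pdx1 is itself among the 11 and among the 2. With foxa and pdx1 left out, 18 genes were called and raised by at least the pdx1 difference. Of these 33.3% had at least 1 raised neighbour and 0 had at least 3. The calls beside pdx1 were sensitive to single arrays: lnx2a (limma adjusted p = 0.061) and tagln3b (limma adjusted p = 0.056) lost theirs without EWS-FLI1 replicate 1, and gtf3ab without EWS-FLI1 replicate 1 or 3 (highest limma adjusted p = 0.062). zdhhc24 kept its call in each of the 13 alternatives run for it.

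Beside the genes that were lower, kiz was the only neighbour that limma called. kiz, near foxa2, fell by 0.39 (limma adjusted p = 0.017) with both means at background, and lost its call without control replicate 1 or any 1 EWS-FLI1 replicate (highest limma adjusted p = 0.077). nkx2.2a, the nearest measured neighbour on 1 side of foxa2, also with both means at background, differed by -0.24 (limma adjusted p = 0.28). The neighbours of foxa1, foxa3, cxcr4a and cxcr4b were not called by limma, with differences between -0.47 for si:ch73-71c20.5 beside cxcr4a and 0.43 for blvrb beside foxa3. For si:ch73-71c20.5 and blvrb the groups did not overlap. Both stayed uncalled in 12 of 13 alternatives, with lowest limma adjusted p of 0.0146 and 0.00665.

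**Figure D4:**
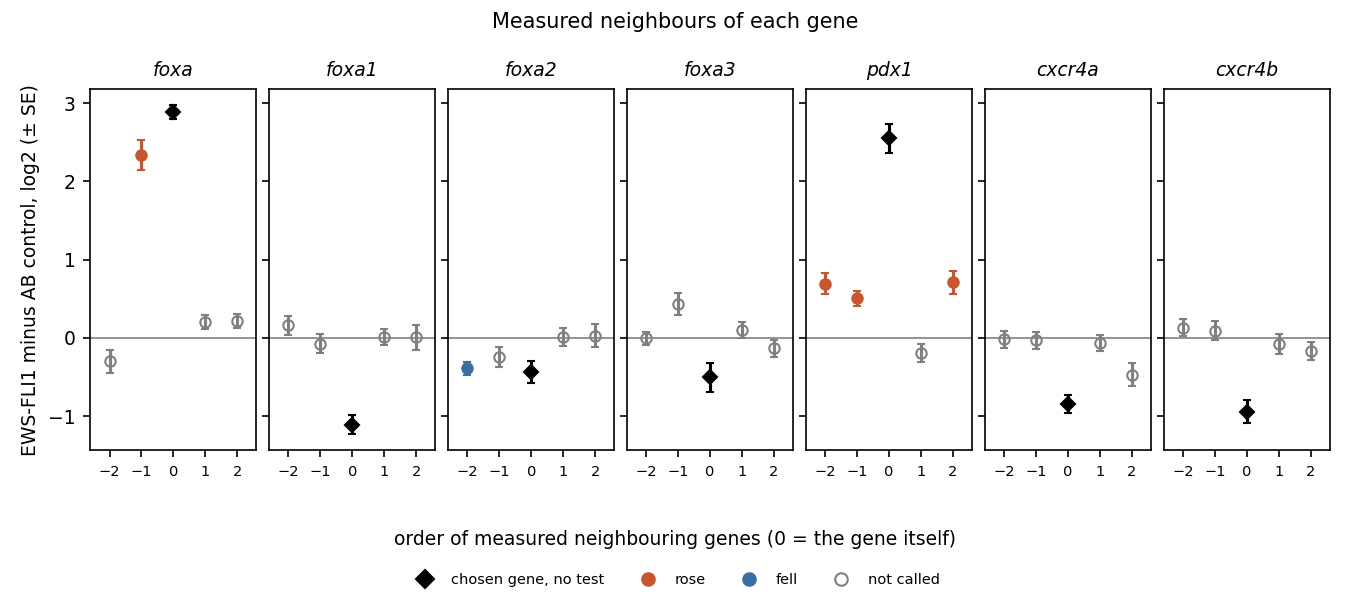
Difference between EWS-FLI1 and AB control embryos (y axis, log2, with its SE as error bars) of each of the 7 genes (black diamonds at 0, no test) and of up to 2 measured neighbours on each side (circles, x axis in gene order; orange where limma called a rise, blue a fall, open where neither). Raised neighbours stand beside foxa, at 2.34, and beside pdx1, at 0.51, 0.69 and 0.71, and no raised neighbour stands beside the other 5 genes. Some neighbours of these 5 genes and of foxa had both group means at background.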

How the data were processed

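Each of 6 pools of 40 embryos gave 1 Affymetrix array, per the labels' protocols. The authors deposited log2 RMA values, with RMA, affy and R 2.2.0 named per the submitters' processing notes; the log base was inferred from the range, 1.58 to 13.46. RMA equalizes the distributions of arrays, so differences are relative, and it compresses differences of dim probe sets. Arrays carry no read depth, and 3 per group limits the precision. No source used here gives the clutches behind the pools, so p-values measure the spread between pools.

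After 115 manufacturer controls were dropped, 15502 probe sets were fitted with limma 3.58.1 in R 4.3.3 (2 group means, two-sided, Benjamini-Hochberg over 15502; called at adjusted p under 0.05). The fit was also run on simulated data. These had independent noise of equal spread in both groups and fewer changed probe sets than were called here, so that run cannot vouch for the calls. GEO's platform annotation named 1 gene for 10795, of which 10711 matched the RefSeq table of GRCz12tu by Entrez identifier. The probe set with the highest mean stood for a gene. Figures used matplotlib 3.10.9.

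The 7 genes, the 11 lists and the naming rule were chosen with earlier results of these data known. The rule named up to 4 called genes per list with the largest differences (2 where none was called), 13 set genes, measured neighbours and, for 4 of the 7, the 3 most correlated genes. Alternatives were a replicate block, a filter on dim probe sets, other scalings and priors, array weights, a stricter threshold, another choice of probe set and each array left out. Probe, promoter and protein sequences were not used here, so cross-hybridization between FoxA genes was not examined.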

Additional observations from a re-analysis of the deposited data

How the results depend on the processing

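Over the 10 alternatives run for the 7 genes, foxa ranged from 2.84 to 2.93, pdx1 from 2.33 to 2.71, foxa1 from -1.19 to -1.01, cxcr4b from -1.04 to -0.77, cxcr4a from -0.92 to -0.75, foxa3 from -0.69 to -0.35 and foxa2 from -0.59 to -0.33. In the replicate block the differences are identical by construction. Each gene has 1 probe set, so no other probe set could be tried. The count of called probe sets over the whole array, 834 higher and 1001 lower, was 415 and 411 at adjusted p under 0.01, and 450 to 1023 and 433 to 1286 with 1 array left out, lowest without EWS-FLI1 replicate 1. Dropping EWS-FLI1 replicate 2 gave 534 higher and 572 lower, and dropping EWS-FLI1 replicate 3 gave 454 and 519. Fits that lacked 1 control array held as many arrays as those that lacked 1 EWS-FLI1 array, but called more probe sets. They called 655 higher and 711 lower when control replicate 1 was dropped. The counts were 1023 and 1286 for control replicate 2, and 895 and 1077 for control replicate 3. Why the counts depended on which array was dropped was not tested.

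Deviations of same-numbered arrays from their group means had correlations of -0.08, -0.10 and -0.08. Deviations from a mean of 3 arrays balance out within a group, so these values cannot tell whether the numbers pair the pools. With the replicate block 705 probe sets were higher and 871 lower, and cxcl12b passed the threshold (adjusted p = 0.031). Of 38 called genes that the rule named, 21 passed at adjusted p under 0.01. In the refits at 0.05, 16 lost the call at least once, 14 of them in refits that left out an array and in none of the other refits. The difference changed sign in at least 1 alternative for 13 of the 73 named genes, of which 0 were called. The cause of these losses was not tested. The fallen endoderm genes numbered 2 at adjusted p under 0.01, the fallen other Fox genes 3, and the fallen enveloping layer markers 0. neurod1 was removed by the filter on dim probe sets, which left 0 raised genes in the pancreas, liver and gut list.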
